A study of Homo sapiens with 34 samples.

Results

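The phagocyte NADPH oxidase is described here through 6 of its subunit genes, CYBA, CYBB, NCF1, NCF4, RAC1 and RAC2, which were taken by name from the 20255 genes of the deposited expression table. All 6 were found, and all 6 passed the filter on low values. The cells were derived from H1, an established human embryonic stem cell line, without exogenous haematopoietic cytokines. The samples formed 12 populations. These were undifferentiated H1 cells without treatment (1 sample), unsorted embryoid bodies of day 0 labelled BMP4+hVEGF, unsorted cells of days 2 and 4 labelled hVEGF, and cells sorted on the blood cell glycoprotein CD43 on days 6, 9, 12 and 16, also labelled hVEGF. On day 16 the sort used CD45 as well, so that the cells called CD43- on that day were CD43-CD45- and those called CD43+ were labelled CD43+/CD45+. Each of the 11 populations from day 0 onwards had 3 independent biological replicates. By the protocol, VEGF was the only growth factor from day 3. All cells came from 1 line.

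The oxidase makes superoxide from oxygen with electrons taken from NADPH, and phagocytes use it to kill ingested microbes. Its catalytic core is a membrane cytochrome of gp91phox, encoded by CYBB, and p22phox, encoded by CYBA, which keeps gp91phox stable. In resting cells regulators such as p47phox (NCF1) and p40phox (NCF4) are held in the cytosol, and on activation they join the cytochrome together with a RAC GTPase, mainly RAC2 in neutrophils and RAC1 in many other cells. Loss of the cytochrome or of a cytosolic regulator causes chronic granulomatous disease.

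A value in the table is a GC-normalized tag count. Sorted by size, the values were the same in all 34 samples (median 197, highest 90700), so a value is close to a rank among genes of similar GC content. The depth of the samples is therefore unknown, and differences among abundant genes are compressed. Replicates of the same population correlated across genes with Pearson's r of 0.952 to 0.987, although genes are not independent. SPN encodes CD43 and went with the sort, with a lowest value of 2338 in the CD43+ samples and a highest value of 328 in the CD43- samples. A gene was called when its Benjamini-Hochberg adjusted p in limma was below 0.05 and its fold change above 4, which is 2 on the log2 scale. Fold changes are on the log2(value + 1) scale, which understates the change of low genes. In these bulk samples, fewer cells of a type and less RNA per cell cannot be told apart.

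CYBB, the gene of the catalytic subunit, went from values near 0 before the sort to 14685 or more in every CD43+ sample of days 12 and 16. It lies on chromosome X at 37780011 to 37813461 (GRCh38, plus strand, ENSG00000165168). A protein-coding gene on the same strand, AF241726.2, covers 33451 bases of the CYBB locus in GENCODE v29. Whether the CYBB values hold reads of that gene was not tested. For CYBB the undifferentiated sample had a value of 16, and the 9 samples of days 0, 2 and 4 ranged from 2 to 10. In CD43+ cells the values were 44, 60 and 41 on day 6, and 950, 1154 and 888 on day 9. The gene thus stood higher on day 9 than in any day 6 sample. The values were 29026, 17368 and 17368 on day 12, and 14685, 18772 and 17368 on day 16. All day 12 samples were above all day 9 samples, whereas days 12 and 16 overlapped. The value 17368 recurs because all samples hold the same set of values.

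In CD43- cells the CYBB values were 2, 6 and 8 on day 6, and 8, 4 and 6 on day 9. They were 6, 409 and 680 on day 12, and 20, 64 and 36 on day 16. Every CD43+ sample was above every CD43- sample of its day. The log2 fold change of CD43+ over CD43- cells was 3.08 on day 6 (standard error 0.90, adjusted p = 0.00554, limma). On days 9, 12 and 16 it was 7.19, 7.37 and 8.83 (standard error 0.90, highest adjusted p = 9.35e-08, limma). The day 6 difference was under the 4-fold threshold with a pseudocount of 10 (1.93, adjusted p = 0.0231, limma).

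CYBA, the gene of the partner that stabilises gp91phox, was present throughout and differed far less between populations. Its locus is chromosome 16 at 88643283 to 88651152 (minus strand, ENSG00000051523). Its value was 2612 in undifferentiated cells, 1896, 1964 and 1532 on day 0, 1181, 1164 and 1026 on day 2, and 868, 928 and 974 on day 4. The 3 unsorted populations from day 0 to day 4 did not overlap. In CD43- cells CYBA ranged from 1516 to 2952 over the 4 days. In CD43+ cells the values were 2561, 2114 and 2438 on day 6 and 3980, 3419 and 3680 on day 9. Day 12 gave 8264, 6357 and 7026, and day 16 gave 4839, 4422 and 5898. The day 6 values overlapped those of the day 6 CD43- cells (2357, 1972 and 2448), and from day 9 the sorted populations no longer overlapped.

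The log2 fold change of CYBA in CD43+ over CD43- cells was 0.07 on day 6 (standard error 0.14, adjusted p = 0.696, limma) and 0.60 on day 9 (adjusted p = 0.000411). It was 1.85 on day 12 (adjusted p = 3.64e-12) and 1.68 on day 16 (adjusted p = 2.57e-11). From day 9 the differences thus passed the p threshold and none passed the 4-fold threshold. Against day 4, the lowest population, CYBA was called on day 12 (2.96, adjusted p = 2.18e-16, limma) and day 16 (2.44, adjusted p = 1.01e-14). On day 9 the difference lay at the threshold (2.0, adjusted p = 1.68e-12) and was not called, although it was called without replicate 2 or 3 of day 4 or replicate 2 of the day 9 CD43+ cells (1.94 to 2.05 leaving out each sample in turn).

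**Figure D1:**
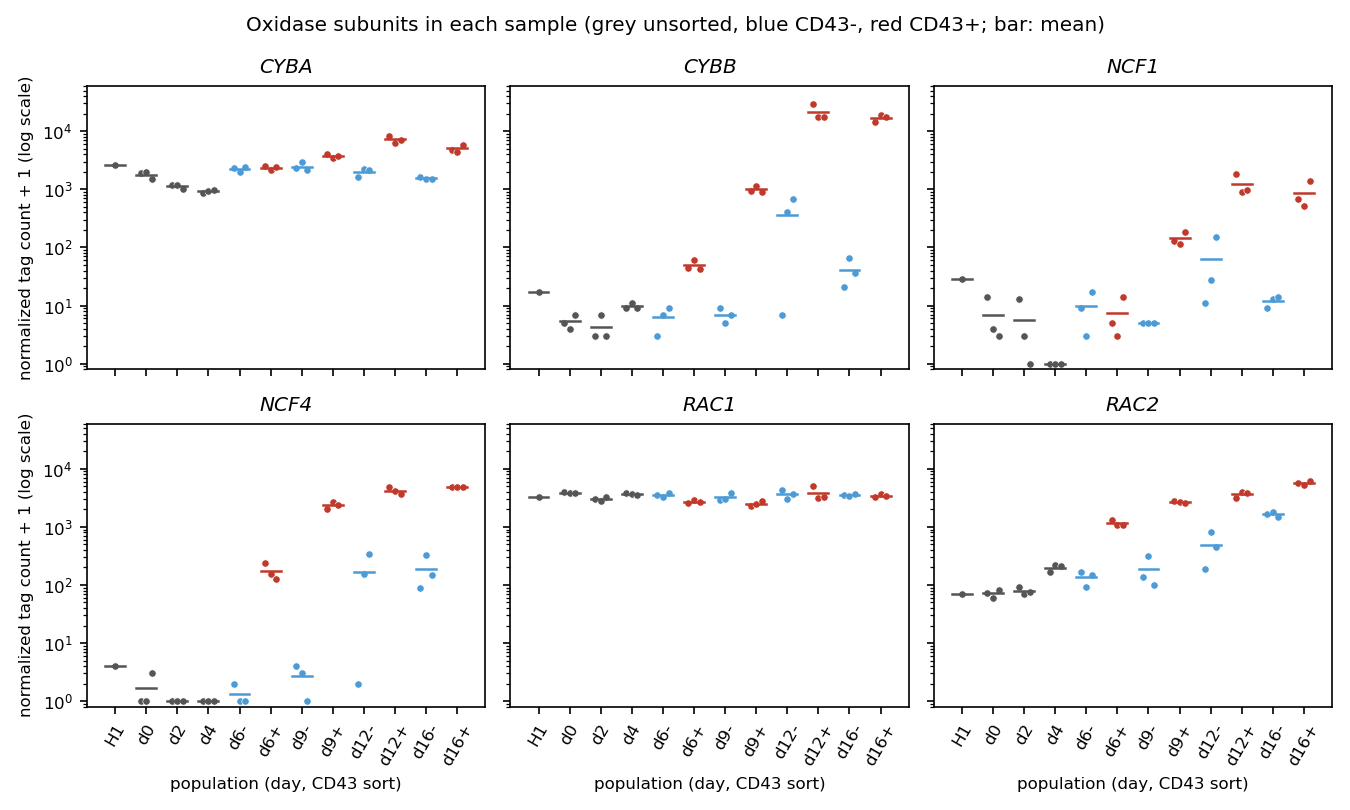
Normalized tag counts plus 1 of the 6 subunit genes in each of the 34 samples (vertical axis, log scale) by population (horizontal axis, H1 for undifferentiated cells, d for day, - and + for the CD43 sort). Points are samples and bars are means. CYBB, NCF1 and NCF4 lie between 0 and 28 in every sample from H1 to day 4 and climb in the red CD43+ populations, whereas RAC1 stays between 2328 and 5134 in all samples.

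NCF4, the gene of p40phox, was the cytosolic regulator that separated the sorted cells earliest. Its locus is chromosome 22 at 36860988 to 36878015 (plus strand, ENSG00000100365). The gene was listed at 0 in all day 2 and day 4 samples and at 3 or less in the other samples before the sort. In day 6 CD43+ cells the values were 235, 154 and 124, against 1, 0 and 0 in day 6 CD43- cells. On day 9 they were 1992, 2723 and 2387 against 3, 2 and 0. On both days the sorted populations were far apart, with a log2 fold change of 7.04 on day 6 (standard error 1.0, adjusted p = 1.73e-06, limma) and 10 on day 9 (adjusted p = 1.97e-09). On day 12 the CD43+ values were 4758, 4136 and 3738, and the CD43- values were 1, 153 and 340. On day 16 they were 4822, 4880 and 4880 against 86, 324 and 150. The differences were again called, at 6.47 (adjusted p = 2.37e-06) and 4.91 (adjusted p = 0.000108). An antisense gene, NCF4-AS1, covers 9454 bases of the NCF4 locus on the opposite strand in GENCODE v29, and whether the counting used strand is not given in the sources used here.

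NCF1, the gene of p47phox, which carries the cytosolic regulators to the membrane, separated the sorted cells from day 9. It lies on chromosome 7 at 74773962 to 74789315 (plus strand, ENSG00000158517). The undifferentiated sample had a value of 28, the samples of days 0 and 2 ranged from 0 to 13, and all 3 day 4 samples were listed at 0. On day 6 the values were 4, 2 and 13 in CD43+ cells and 8, 2 and 16 in CD43- cells, which overlapped (log2 fold change -0.38, standard error 0.82, adjusted p = 0.734, limma). On day 9 the CD43+ values were 128, 113 and 185, and every CD43- sample had 4 (4.81, adjusted p = 1.1e-05). The populations no longer overlapped from this day on. On day 12 the values were 1836, 882 and 962 against 10, 26 and 148 (5.04, adjusted p = 4.85e-06). On day 16 they were 672, 506 and 1380 against 8, 12 and 13 (6.04, adjusted p = 2.94e-07). NCF1 has near-identical pseudogene copies, NCF1B and NCF1C, which were not found by these names in the table. Of the 1347 stretches of 50 bases in the transcript NCF1-201, 1138 (84.5%) occur in a GENCODE v29 transcript of NCF1B or NCF1C, so that the values of NCF1 may hold reads of the copies and are uncertain.

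RAC2, the GTPase of blood cells, was the only one of the 3 genes called higher on day 6 with values well above 0 before the sort. It lies on chromosome 22 at 37225261 to 37244448 (minus strand, ENSG00000128340). Its value was 69 in undifferentiated cells, 72, 58 and 81 on day 0, 91, 68 and 76 on day 2, and 167, 218 and 211 on day 4. The day 4 samples were above those of day 2 (log2 fold change 1.33, adjusted p = 0.00327, limma), a difference under the 4-fold threshold. In CD43+ cells the values were 1327, 1063 and 1081 on day 6 and 2745, 2690 and 2532 on day 9. They were 3162, 3940 and 3819 on day 12 and 5638, 5193 and 6248 on day 16. The 4 days did not overlap. In CD43- cells they were 163, 93 and 148 on day 6 and 138, 319 and 99 on day 9. Day 12 gave 184, 800 and 452, and day 16 gave 1642, 1817 and 1500. The CD43- cells of day 16 thus stood above the CD43+ cells of day 6. The log2 fold change of CD43+ over CD43- cells on days 6, 9 and 12 was 3.13, 4.01 and 3.16 (standard error 0.35, highest adjusted p = 3.11e-08, limma). On day 16 it was 1.78 (adjusted p = 5.68e-05), under the 4-fold threshold.

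RAC1, the widely expressed GTPase, was at a similar level in all 12 populations, from 2328 to 5134 over all samples. It lies on chromosome 7 at 6374523 to 6403977 (plus strand, ENSG00000136238). In CD43+ cells the values were 2564, 2881 and 2720 on day 6 and 2328, 2451 and 2746 on day 9, all below the CD43- samples of the same day, of which the lowest was 3280 on day 6 and 2881 on day 9. These differences passed the p threshold but were small (log2 fold change -0.38, adjusted p = 0.0237, and -0.35, adjusted p = 0.0263, standard error 0.14, limma). On days 12 and 16 the sorted populations overlapped (0.04, adjusted p = 0.814, and -0.03, adjusted p = 0.856). The day 12 value was -0.18 without replicate 1 of the CD43+ cells, which had a value of 5134 against 3165 and 3302. None of the 50-base stretches of the RAC1-201 transcript occurs in a transcript of RAC2 or RAC3.

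**Figure D2:**
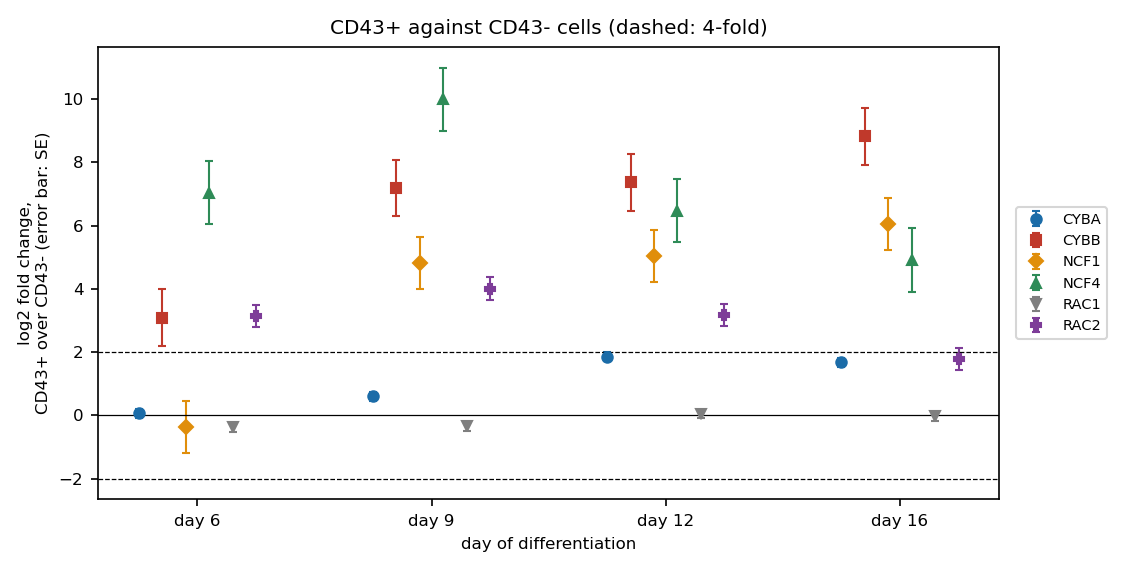
Log2 fold change of CD43+ over CD43- cells (vertical axis) by day (horizontal axis) for the 6 subunit genes, with standard errors from limma, n = 3 samples per population. Dashed lines mark 4-fold. CYBB, NCF4 and RAC2 are above the upper line on day 6, NCF1 joins them on day 9, and CYBA reaches 1.85 on day 12.

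Counted over the complex, 3 of the 6 subunits were called higher in CD43+ than in CD43- cells on day 6 (CYBB, NCF4 and RAC2), when 4.68% of the 19788 genes tested were called higher. On days 9 and 12 there were 4 of 6, with NCF1 added, when 8.65% and 11.8% of all genes were called higher. On day 16 there were 3 of 6 (CYBB, NCF1 and NCF4), against 12.2% of all genes. None of the 6 was called lower on days 6, 9, 12 or 16, when 7.85%, 12.8%, 14.4% and 13.6% of all genes were. The median log2 fold change of the 6 was 1.58, 4.41, 4.10 and 3.34 on the 4 days, and that of all genes tested was 0.14, 0.24, 0.22 and 0.14. A fold threshold of 2 added CYBA on day 12, and CYBA and RAC2 on day 16 (5 of 6). At that threshold 4727 and 4810 of the 19788 genes were called higher on days 12 and 16.

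Against day 4, the last population before the sort, 4 of the 6 subunits were called higher in CD43+ cells on day 6 (6.8% of all genes) and on day 9 (10%). They were CYBB, NCF1, NCF4 and RAC2. On days 12 (15.3%) and 16 (12.7%) CYBA was called as well, which left RAC1 as the exception. NCF1 and NCF4 were listed at 0 in all day 4 samples, so no fold change is given for them. The day 6 calls of CYBB and NCF1 rest on low values. For CYBB the log2 fold change was 2.34 (adjusted p = 0.0306, limma), and the call was lost whichever of the 6 samples was left out and with a pseudocount of 10 (1.63, adjusted p = 0.053). The NCF1 call, on values of 4, 2 and 13, was lost without replicate 3 of the day 6 CD43+ cells and with a pseudocount of 10, and on that day NCF1 was also called in CD43- cells. These comparisons share the day 4 samples.

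From day to day within CD43+ cells, 3 of the 6 subunits rose between days 6 and 9, when 3.56% of all genes were called higher. They were CYBB (log2 fold change 4.35, standard error 0.90, adjusted p = 0.000457, limma), NCF1 (4.56, adjusted p = 9.31e-05) and NCF4 (3.82, adjusted p = 0.00443). RAC2 differed by 1.2 (adjusted p = 0.00885), under the 4-fold threshold. Between days 9 and 12, 2 of the 6 rose, against 8.45% of all genes, namely CYBB (4.38, adjusted p = 0.000171) and NCF1 (3.05, adjusted p = 0.00248). NCF4 differed by 0.84 in this second step (adjusted p = 0.499). From day 12 to day 16, 0 of the 6 were called in limma, when 9.05% of all genes were called in either direction. CYBA alone of the 6 had an unadjusted p under 0.05 in that step (log2 fold change -0.52, adjusted p = 0.00345).

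The order in which the 6 subunits rose in CD43+ cells follows from these calls. CYBB, NCF4 and RAC2 were called over both the CD43- cells of the same day and day 4 from day 6, and NCF1 from day 9. The place of CYBB rests on the 2 day 6 calls, of which that over day 4 was lost whichever sample was left out and both were lost with a pseudocount of 10 (1.63 and 1.93), so that CYBB then joined on day 9 with NCF1. CYBA and RAC1 were not called over both on any day. Both were present in every population, CYBA at 868 or more and RAC1 at 2328 or more in each sample. As a description of level, the mean of each gene in CD43+ cells was set against its highest CD43+ mean. On day 6 RAC1 stood at 70.4% of its highest mean, CYBA at 32.9%, RAC2 at 20.3%, NCF4 at 3.52%, NCF1 at 0.516% and CYBB at 0.227%. CYBB, among the first genes called, was thus the farthest below its later level. On day 9 CYBA (51.2%), NCF4 (48.7%) and RAC2 (46.6%) stood near 50%, NCF1 at 11.6% and CYBB at 4.69%. On day 12 all 6 genes were at 63.9% or more, and the highest mean fell on day 12 for CYBA, CYBB, NCF1 and RAC1 and on day 16 for NCF4 and RAC2. The percentages compare each gene with itself and not between genes.

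**Figure D3:**
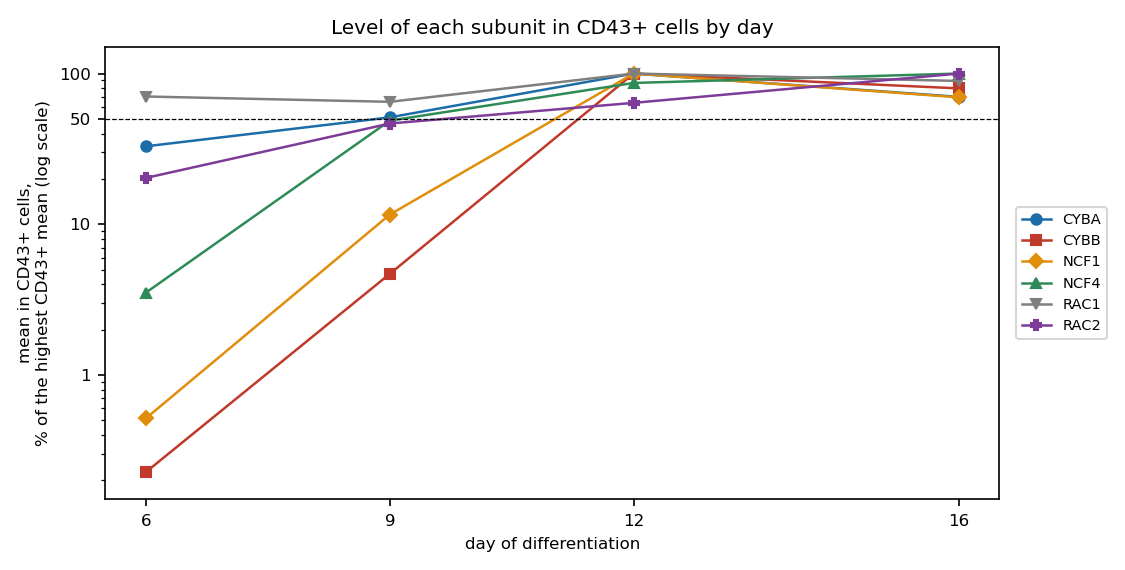
Mean normalized tag count in CD43+ cells as a percentage of the highest CD43+ mean of the same gene (vertical axis, log scale) by day (horizontal axis), n = 3 samples per point, with a dashed line at 50%. RAC1, CYBA and RAC2 start highest, NCF4 reaches 48.7% on day 9, and CYBB and NCF1 pass the line between days 9 and 12.

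Whether the CD43 difference itself grew between days was tested as an interaction. From day 6 to day 9 it grew for 2 of the 6 subunits, CYBB by 4.10 (standard error 1.27, adjusted p = 0.0237, limma) and NCF1 by 5.18 (standard error 1.16, adjusted p = 0.00219), when 3.21% of all genes were called in this direction. NCF4 (2.96, adjusted p = 0.154), RAC2 (0.89, adjusted p = 0.224), CYBA (0.52, adjusted p = 0.0586) and RAC1 (0.03, adjusted p = 0.954) did not pass. NCF4 did pass with a pseudocount of 10 (3.58, adjusted p = 0.00542) and in a fit of only the populations compared (2.96, adjusted p = 0.0125, limma). The CYBB call was lost without replicate 3 of the day 6 CD43+ cells (4.0), replicate 3 of the day 6 CD43- cells (3.78) or replicate 2 of the day 9 CD43- cells (3.88). In the later steps to day 12 and to day 16, 0 of the 6 were called, when 9.0% and 5.03% of all genes were called in either direction. In these 2 steps CYBA (1.25, adjusted p = 1.98e-05), NCF4 (-3.53, adjusted p = 0.0644) and RAC2 (-1.37, adjusted p = 0.0531) had an unadjusted p under 0.05, each in 1 step.

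CYBA, RAC1 and RAC2 were present in CD43- cells from day 6. CYBB and NCF4 were at 8 or less there on days 6 and 9 and rose later and unevenly. Between days 9 and 12, 3 of the 6 subunits were called higher, against 4.52% of all genes, CYBB by 4.20 (adjusted p = 0.000649, limma), NCF1 by 2.82 (adjusted p = 0.00815) and NCF4 by 4.37 (adjusted p = 0.00129). The 3 day 12 CD43- samples stood apart from each other. Replicates 2 and 3 held CYBB at 409 and 680 and NCF4 at 153 and 340, whereas replicate 1 held 6 and 1. Markers of macrophages moved with them. CD14, the lipopolysaccharide co-receptor, was at 13 in replicate 1 and at 249 and 337 in the others, and the complement gene C1QC at 37, 742 and 1140. Over the whole list of 12 monocyte and macrophage markers, the summed value was 922 in replicate 1 and 7164 and 9699 in replicates 2 and 3, and no marker was at 0 in all 3. In the CD43+ cells of the same day the sum was 36128 to 116395, and in day 9 CD43- cells it was 1039 to 2800, with 6 of the 12 at 0 in all samples, C1QA and C1QC among them. PTPRC, the gene of CD45, was at 4, 197 and 371. Granulocyte markers were also highest in replicate 3, which was the highest for CYBB, NCF1 and NCF4. The sum of 15 neutrophil granule markers was 442, 1356 and 8131, with MPO at 16, 324 and 4608, and that of 10 mast cell, basophil and eosinophil markers was 0, 14 and 567. The part of these cells in the result was not tested.

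Without replicates 2 and 3 of day 12, which leaves 1 sample taken to vary like the other populations, none of the 3 differences between days 9 and 12 was called. The log2 values were 0.04 for CYBB, 1.14 for NCF1 and -0.19 for NCF4. The NCF1 call was also lost without replicate 3 alone (1.79). The differences between CD43+ and CD43- cells of day 12 remained called for CYBB (11.52), NCF1 (6.72), NCF4 (11.03) and RAC2 (4.29), and CYBA was called too (2.13, adjusted p = 3.79e-10, limma).

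On day 16 the CD43- cells had another pattern. CYBB (20, 64 and 36) and NCF1 (8, 12 and 13) were low, NCF4 was at 86, 324 and 150, and RAC2 at 1642, 1817 and 1500. Replicate 2 was the highest for CYBB, NCF4 and RAC2. RAC2 alone of the 6 was called between days 12 and 16 (2.02, standard error 0.35, adjusted p = 3.5e-05, limma), against 4.46% of all genes called higher. The call lay at the threshold and was lost with a pseudocount of 10 (1.99), with median-of-ratios scaling (1.97) and without replicate 1 of day 12 or replicate 2 of day 16. Macrophage markers were mixed here. CD14 was at 5, 2 and 6 and C1QA at 8, 2 and 6, whereas CD68 was at 902, 1153 and 939 and CSF1R at 119, 290 and 177, both above all day 9 CD43- samples. The sum over the 12 markers was 1820 to 2460, and none was at 0 in all samples. Among neutrophil granule markers MPO was at 4657, 12840 and 8970, with a sum over 15 markers of 6856 to 21530, against 409 to 846 on day 9. The sum of mast cell, basophil and eosinophil markers was 1012 to 4851. That of 12 erythroid markers was 5793 to 9532, against 597 to 1294 in day 12 CD43- cells. The sum of 9 megakaryocyte markers was 5558 to 15693, against 982 to 1916 on day 12. The platelet gene PF4 was at 1062, 3224 and 1582, and PTPRC at 18, 42 and 22. The part of such cells in the RAC2 and NCF4 values was not tested.

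**Figure D4:**
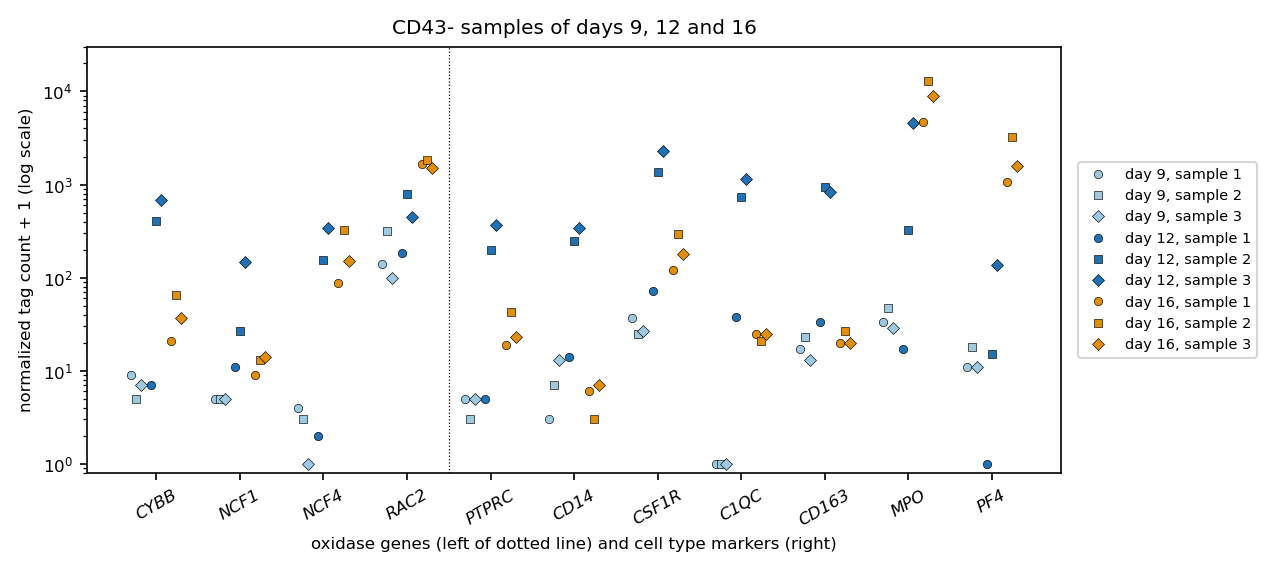
Normalized tag count plus 1 (vertical axis, log scale) of 4 oxidase genes and 7 cell type markers (horizontal axis) in each CD43- sample of days 9, 12 and 16. Samples 2 and 3 of day 12 are high for CYBB and NCF4 as well as for PTPRC, CD14, CSF1R, C1QC and CD163. For NCF1 only sample 3 of day 12 stands apart (148, against 10 and 26 in samples 1 and 2). The day 16 samples are high for RAC2, MPO and PF4.

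The CD43+ cells of the 4 days also differed in their lineage markers. The summed value of 12 erythroid markers was 141153 to 166494 on day 6, 200036 to 337781 on day 9, 10440 to 28181 on day 12 and 19554 to 54322 on day 16. That of 15 neutrophil granule markers was 394 to 1148, 23788 to 31359, 205387 to 235714 and 164558 to 238675. The macrophage sum was 916 to 1378 on day 6, 3822 to 4438 on day 9, 36128 to 116395 on day 12 and 76827 to 93873 on day 16, and C1QA was listed at 0 in all day 6 samples. The sum of 10 mast cell, basophil and eosinophil markers was 764 to 1335, 2368 to 5733, 30084 to 62803 and 52621 to 115422. These last 3 sums, like all the subunits except RAC1, were higher in every day 9 sample than on day 6. The same held for day 12 over day 9. The sum of 9 megakaryocyte markers was 10794 to 16296, 37886 to 42885, 11836 to 43165 and 26096 to 97325 on the 4 days. That of 10 mesenchymal markers was 58879 to 155294, 4272 to 21969, 21143 to 45874 and 7432 to 15896. Neither of these, nor the erythroid, endothelial or pluripotent sum, was higher in every sample at both steps. The part of cell composition in the subunit values was not tested.

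Before the sort, 0 of the 6 subunits were called between days 0 and 2 (7.88% of all genes called in either direction) or between days 2 and 4 (9.5%). CYBA (log2 fold change -0.67, adjusted p = 0.000314, limma) and RAC1 (-0.36, adjusted p = 0.043) had an unadjusted p under 0.05 in the first step, and CYBA, NCF1 and RAC2 in the second. In CD43- cells of day 6, NCF1 was the 1 subunit called over day 4 (4.94% of all genes called higher), on values of 8, 2 and 16 against 0. No subunit was called between the CD43- cells of days 6 and 9, when 1.75% of all genes were called in either direction, and none had an unadjusted p under 0.05.

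Promoters are shown for CYBB, NCF1 and CYBA because only these 3 of the 6 genes had RefSeq sequences (GRCh38.p14). NCF4, RAC1 and RAC2 had no entry. Each sequence is on the strand of its gene and runs from 250 bases before the RefSeq start to 20 bases past the gene start of the deposited table. CYBB is at chrX:37779809-37780030, NCF1 at chr7:74773761-74773981 and CYBA at chr16:88651133-88651303. Capitals mark every match, on either strand, to GAGGAA (a core bound by PU.1 and other ETS factors), TTGCNNAA (bound by C/EBP factors), the IRF motif (GAAA, any 2 bases, GAAA) or AGATAA (bound by factors of the GATA family).
CYBB: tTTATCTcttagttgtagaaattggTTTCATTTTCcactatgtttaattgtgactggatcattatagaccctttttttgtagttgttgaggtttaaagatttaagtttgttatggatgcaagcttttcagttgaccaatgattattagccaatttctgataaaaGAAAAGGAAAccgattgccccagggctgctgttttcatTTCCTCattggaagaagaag
NCF1: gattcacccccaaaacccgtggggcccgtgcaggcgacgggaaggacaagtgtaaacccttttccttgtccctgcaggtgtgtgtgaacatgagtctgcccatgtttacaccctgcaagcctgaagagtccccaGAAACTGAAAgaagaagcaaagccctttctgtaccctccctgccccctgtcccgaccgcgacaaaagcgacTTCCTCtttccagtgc
CYBA: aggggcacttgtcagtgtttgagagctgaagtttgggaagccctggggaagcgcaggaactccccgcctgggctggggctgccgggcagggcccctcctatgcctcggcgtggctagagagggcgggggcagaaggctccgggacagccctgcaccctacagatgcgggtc
CYBB and NCF1 each held GAGGAA on the opposite strand, 48 and 45 bases before the RefSeq start, and the IRF motif on their own strand, 86 and 116 bases before it. The deposited gene starts lie 48 (CYBB) and 49 (NCF1) bases before the RefSeq starts. Both GAGGAA matches therefore fall within the genes as deposited. CYBB held a further IRF motif and an AGATAA on the opposite strand. CYBA held none of the 4 motifs in its window of 300 bases. Of the 35116 promoter windows of that length, 27.9% held GAGGAA, 10.5% TTGCNNAA, 3.57% the IRF motif and 10.3% AGATAA. A match is a description of the letters and not a site.

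The genes of factors known to act on oxidase promoters included SPI1, which encodes PU.1. SPI1 had values of 1553, 1247 and 1332 in day 6 CD43+ cells against 10, 8 and 5 in day 6 CD43- cells (log2 fold change 7.35, adjusted p = 1.66e-07, limma), and it was called on all 4 days. In CD43+ cells SPI1 was at 2095, 2194 and 2264 on day 9 and at 7746, 5870 and 6052 on day 12. On day 16 it was at 8050, 6442 and 7746. SPI1 was thus separated by the sort on day 6, though below its later values. On that day CYBB was at 41 to 60 in CD43+ cells and NCF1 did not differ. Of the 11 factors, 2 were called higher and 3 lower on day 6, 6 and 2 on days 9 and 12, and 7 and 2 on day 16. Shares over all genes tested were 4.68%, 8.65%, 11.8% and 12.2% higher on the 4 days, and 7.85%, 12.8%, 14.4% and 13.6% lower. GFI1, a repressor of myeloid and stem cell genes, was higher on each day (6.49, 7.06, 7.81 and 4.18). CEBPE, a factor of late granulocyte maturation, was called from day 9 (6.13, 8.76 and 5.71). IRF8 was lower on day 6 (-3.80, adjusted p = 0.000131) and higher on days 9, 12 and 16 (5.36, 4.42 and 5.94). HOXA9 and HOXA10 were lower on every day, HOXA10 by -5.36, -7.22, -6.49 and -3.83.

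The receptors that trigger the oxidative burst were, among the lists of the oxidase pathway, the one with the largest share called on days 12 and 16. Of 17, 5 were higher in CD43+ cells on day 6, 11 on day 9 and 16 on days 12 and 16, and none was lower. Their median log2 fold change was 1.06, 3.92, 5.20 and 6.61. Over all genes tested, 4.68%, 8.65%, 11.8% and 12.2% were called higher on the 4 days, and 7.85%, 12.8%, 14.4% and 13.6% lower. CLEC7A, the receptor for fungal glucan, was at 0.53 on day 6 (adjusted p = 0.562, limma) and was called from day 9 (5.68, 5.64 and 8.63). The IgG receptor genes FCGR3A and FCGR3B, which are near-identical and so uncertain apart, were called on days 12 (6.46 and 8.26) and 16 (8.26 and 7.51) and not before, although FCGR3A was called on day 9 with a pseudocount of 0.1 (4.9, adjusted p = 0.0156).

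Among 16 kinases and lipid enzymes of oxidase activation, 3 were called higher on day 6, and 8, 10 and 9 on the later days, and 1 was lower on each day from day 9. Shares over all genes were 4.68%, 8.65%, 11.8% and 12.2% higher, and 7.85%, 12.8%, 14.4% and 13.6% lower. BTK (4.75, 5.72, 6.64 and 3.97) and SYK, the kinase under immune receptors (3.82, 6.70, 5.30 and 5.41), were called on all 4 days. PIK3CG, a lipid kinase under chemoattractant receptors, was at 1.97 on day 6 (adjusted p = 0.00864, limma), just under 4-fold, and was called afterwards (4.52, 5.86 and 4.87). Leaving out each sample in turn moved its day 6 value from 1.06 to 3.11, and it was called without replicate 1 of the CD43- cells (3.11) or replicate 2 (2.03) or 3 (2.15) of the CD43+ cells, and with a pseudocount of 0.1 (2.01).

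Of 13 genes that switch RAC on or hold it inactive, 3, 6, 5 and 5 were called higher on days 6, 9, 12 and 16, and 0, 2, 0 and 1 lower. Over all genes the shares were 4.68%, 8.65%, 11.8% and 12.2% higher, and 7.85%, 12.8%, 14.4% and 13.6% lower. The exchange factors VAV1 (3.04, 4.32, 4.31 and 4.29) and DOCK2 (2.04, 5.32, 5.97 and 5.89) and the blood cell inhibitor ARHGDIB, which holds RAC in the cytosol (2.44, 3.05, 3.89 and 3.13), were called on all 4 days. The day 6 call of DOCK2 was lost without replicate 1 of the CD43+ cells (1.95) or replicate 3 of the CD43- cells (1.53), with a pseudocount of 10 (1.94) and with median-of-ratios scaling (1.88). The widely expressed inhibitor ARHGDIA was between 0.10 and 0.68 and was not called.

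Of the 9 other oxidase genes tested, out of 13 listed, 2, 0, 0 and 2 were called higher on days 6, 9, 12 and 16, and 1, 2, 2 and 2 lower. Shares over all genes were 4.68%, 8.65%, 11.8% and 12.2% higher, and 7.85%, 12.8%, 14.4% and 13.6% lower. The listed genes called higher were DUOX2 (2.4) and DUOXA2 (6.33) on day 6, named after their values were seen, and NOXA1 (2.47) and C17orf62 on day 16. NOXA1, an activator subunit of the oxidase NOX1, was at 1.2, -0.22 and 1.92 on the days before. It was called on day 12 without replicate 2 of the CD43- cells (2.09) or replicate 3 of the CD43+ cells (2.01), and its day 16 call was lost with a pseudocount of 0.1. NOX4, a homologue of CYBB that works without the cytosolic regulators, was lower in CD43+ cells on all 4 days (-2.92, -6.68, -6.21 and -5.43, highest adjusted p = 0.000235, limma). DUOXA1, a partner of the dual oxidases, was lower on days 9, 12 and 16 (-2.22, -3.55 and -3.01). These calls rest on low values. All 3 were lost with a pseudocount of 10 (-0.63, -1.06 and -1.55), that of day 9 without replicate 2 of the CD43- cells (-1.46) and that of day 16 without replicate 3 of the CD43+ cells (-1.98). C17orf62, the older symbol of CYBC1, which encodes a chaperone of the gp91phox and p22phox pair, was at 0.04, 0.31, 1.49 and 2.17 on the 4 days and was called on day 16. NOX1, NOX3, NOXO1 and the symbol CYBC1 were not found by these names in the table.

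Of 17 genes of the proton channel and of the enzymes that handle superoxide and peroxide, 2, 4, 5 and 5 were called higher and none lower. Over all genes the shares were 4.68%, 8.65%, 11.8% and 12.2% higher, and 7.85%, 12.8%, 14.4% and 13.6% lower. Catalase (CAT), which breaks down peroxide, was higher on each day (3.72, 3.10, 2.92 and 2.78). MPO, which makes hypochlorite from the peroxide of phagocytes, was also called on each day (4.11, 9.33, 8.27 and 3.48), and was at 90700, the maximum of the table, in all CD43+ samples of days 12 and 16, so its difference is compressed. The day 6 call of MPO was lost with a pseudocount of 10 (1.42, adjusted p = 0.179). HVCN1, the proton channel that balances the charge moved by the oxidase, was under the threshold on days 6 and 9 (0.48 and 1.02) and was called on days 12 and 16 (2.62 and 2.49). EPX, the peroxidase of eosinophils, was called from day 9 (5.46, 10.04 and 5.08).

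**Figure D5:**
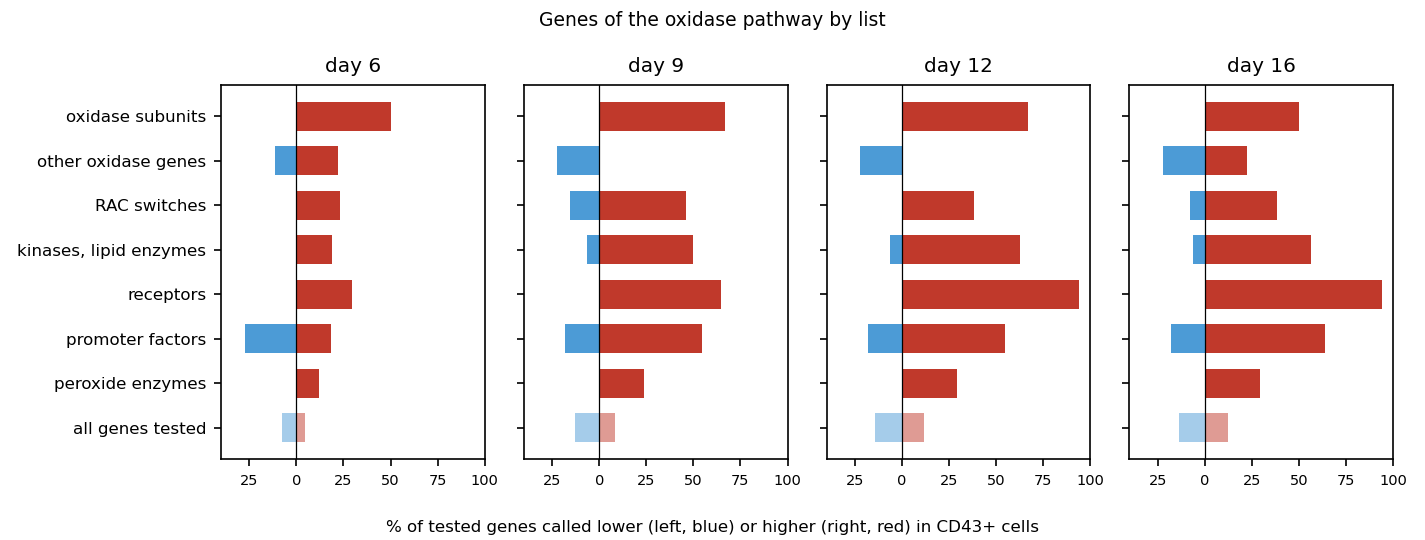
Percentage of the tested genes of each list (vertical axis) that were called higher (right, red) or lower (left, blue) in CD43+ than in CD43- cells (horizontal axis, %), in 1 panel per day, with all 19788 genes tested in pale colours at the bottom. The receptors reach 16 of 17 genes called higher on days 12 and 16, and the subunits 4 of 6 on days 9 and 12.

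The genes most like each subunit were ranked by Pearson's r of log2(value + 1) over the 24 sorted samples, which share the CD43 and day structure, so that high values are common among genes of blood cells. CYBB was most like PTAFR (0.987), C3AR1 (0.983) and ITGAM (0.983), and NCF1 most like FGL2 (0.974), CLEC7A (0.970) and CD86 (0.969). NCF4 was most like HCST (0.983), TYROBP (0.979) and LRMP (0.974). RAC2 was most like RGS14 (0.980), ATP8B3 (0.974) and PDE4A (0.966), and CYBA most like DBNL (0.972), ADPGK (0.942) and GK (0.940). For RAC1 the highest r was lower, 0.838 with BRI3. Among the oxidase genes themselves, r was 0.963 between NCF4 and RAC2, 0.948 between CYBB and NCF1, and 0.866 between CYBA and NCF1. The r of RAC1 with the other 5 subunits lay between -0.182 and 0.177.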

How the data were processed

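RNA was sequenced from 34 samples of H1 cells by 2 companies; which company sequenced which sample is not given in the sources used here. Reads were aligned by the authors against Ensembl annotation v81 (bowtie2, RSEM). The authors normalized the counts with EDASeq (v2.4.1, full) and called genes with DESeq2. The submitters' processing notes also name bcl2fastq, STAR 2.7 and hg38. The deposited numbers are tag counts after GC normalization, whole numbers treated as a normalized score and neither as raw counts nor as CPM. A GC percent per gene, also deposited, was not used. Library sizes cannot be read from the table, so no counting error is given.

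From these values log2(value + 1) was computed with Python 3.11.15, pandas 2.3.3 and numpy 2.4.6, and tested two-sided in R 4.3.3 by limma 3.58.1 (functions lmFit and eBayes, trend on) in 1 fit of the 33 replicated samples and 11 populations. Of 20255 genes, 19788 reached 10 in 3 or more samples and were tested. Calls needed a Benjamini-Hochberg adjusted p below 0.05 over these genes and a fold change above 4, the thresholds in the methods of the study. The undifferentiated sample was given as a value. With 3 samples against 3, an exact permutation p cannot fall below 0.1. The procedure was tested on simulated data. To check whether replicate numbers mark pairs, the deviations of CD43+ and CD43- samples with the same number from their group means were correlated across genes. The correlation was 0.109 to 0.199 on day 6 and lower or mixed afterwards (0.017 to 0.078, 0.039 to 0.108 and -0.015 to 0.042). The main fit used no pairing on any day. Replicate blocks, including a block within day 6, were run as alternatives only.

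The members and lists were chosen with earlier results of these data known. All 6 members are named everywhere. Of each pathway list, the 3 genes with the largest difference among those called on day 12 or 16 are named, and for each member the 3 most similar genes. Some listed genes are not reported here and were left out of the list counts. SPI1, IRF8, HOXA9, ARHGDIA, C17orf62, DUOX2, DUOXA2 and HVCN1 were added after their values were seen. Alternatives were pseudocounts of 0.1 and 10, no filter, a minimum of 100, quantile normalization, median-of-ratios scaling, replicate blocks, a fit of only the compared populations, robust variances, a fold threshold of 2 and leaving out each replicate. A block in the fit of 33 samples and leaving out replicates 2 and 3 of the day 12 CD43- cells were added after seeing the data. Promoters came from a RefSeq table, and transcripts and overlapping genes from GENCODE v29.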

Additional observations from a re-analysis of the deposited data

Results flagged for a closer look

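The difference between CD43+ and CD43- cells itself grew between days 6 and 9 for 2 of the 6 subunits by a test of that change. On the log2 scale it grew by 4.10 for CYBB (adjusted p = 0.0237) and by 5.18 for NCF1 (adjusted p = 0.00219, limma interaction). The CYBB call was lost without replicate 3 of the day 6 CD43+ or CD43- cells or replicate 2 of the day 9 CD43- cells. The NCF1 values of day 6 were low, from 2 to 16, and may hold reads of its pseudogene copies. In day 9 CD43+ cells all 3 samples of both genes were above all 3 samples of day 6, and in CD43- cells the 2 days overlapped.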

How the results depend on the processing

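The counts of the 6 subunits called in the CD43 comparisons of days 6, 9 and 12 stayed within 1.5 times of their value under every alternative run, leaving out each replicate included. With a fold change above 2, the count was 5 on day 16 and 2 between day 4 and day 6 CD43- cells. It was 1 each between days 2 and 4 and for the CD43 difference from day 9 to day 12. Of the 19788 genes tested, 4810, 2245, 1959 and 1657 were called higher in these comparisons at that threshold. With a pseudocount of 10 the subunit count was 2 in day 6 CD43+ cells against day 4. It was 0 in CD43- cells from day 4 to 6 and from day 12 to 16. Over all genes, 633, 485 and 250 were then called higher in these comparisons, and 862, 181 and 457 lower. A pseudocount of 0.1 gave 1 between days 2 and 4, when 1066 of all genes were called higher and 873 lower. A fit of only the populations compared gave 0 in CD43- cells from day 4 to 6 and from day 9 to 12. In it, 760 and 445 of the 16546 genes tested were called higher, and 413 and 204 lower. Median-of-ratios scaling gave 0 from day 12 to 16 in CD43- cells, when 866 of 19788 genes were called higher and 1233 lower. Without replicates 2 and 3 of the day 12 CD43- cells, the count in CD43- cells was 0 from day 9 to 12 and 3 from day 12 to 16, and that of the CD43 difference was 1 and 3 in these steps. For these steps, the differences turned direction for CYBB (2.4) and NCF1 (0.10) from day 12 to 16 in CD43- cells, for NCF4 from day 9 to 12 in CD43- cells (-0.19) and in the CD43 difference (1.03), and for RAC1 in the day 12 comparison (-0.22). Leaving out 1 replicate at a time, the count ranged from 2 to 3 in day 6 CD43+ cells against day 4, from 0 to 2 in CD43- cells from day 12 to 16, from 0 to 1 between days 2 and 4, and from 1 to 2, 0 to 1 and 0 to 1 for the CD43 difference in its 3 steps. Single values that turned direction in this way ranged from -0.50 to 3.21 for NCF4 in CD43- cells from day 12 to 16, from -2.99 to 0.71 for NCF4 in the CD43 difference from day 12 to 16 and from -0.18 to 0.17 for RAC1 on day 12 against CD43- cells and against day 4. Beyond what the omission of samples or the threshold itself fixes, the cause was not tested.

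With the replicate number as a block, within day 6 or over all days, 3, 4, 4 and 3 subunits were called on days 6, 9, 12 and 16, and no call of a subunit changed. Quantile normalization returned the same values, since the samples already shared 1 set of values. The unknown depth limits what can be said of low values such as those of NCF1 and CYBB before day 9.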
